A study of Mus musculus with 14 samples.

Results

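The 9 genes described here encode early response transcription factors: the Fos family members Fos, Fosb and Fosl2, the Jun family members Jun, Junb and Jund, and the Egr family members Egr1, Egr2 and Egr3. Chromatin accessibility around them was read by ATAC-seq, in which a transposase cuts and tags open DNA, as read counts in windows of equal length. A window was assigned to a gene when its centre lay within 100 kb of the start site of that gene and nearer to it than to the start of any other protein-coding gene, in RefSeq coordinates of GRCm38. By this rule, which used no measured value, 231 of 240778 windows belonged to the 9 genes, and 201043 windows had a protein-coding start site within 100 kb. Jun held 42 windows, Fos, Egr2 and Egr3 34 each, Egr1 28, Fosb 25, Junb 17, Fosl2 12 and Jund 5. Of the 231 windows, 39 had their centre within 1 kb of the start site and 166 lay more than 2 kb away, and 58 overlapped a window of higher count, so that neighbouring windows can share reads.

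Fos and Jun family proteins pair through leucine zippers into the dimers known as AP-1, which bind short palindromic DNA sites, and Jun proteins can also pair with one another. Egr proteins bind GC-rich sites through zinc fingers. Genes of both families are switched on within minutes by signals such as antigen receptor engagement, without new protein synthesis, through sites already present in their promoters. In T cells AP-1 acts with NFAT on activation genes, Egr2 and Egr3 are known for restraining the response to antigen, and Foxp3, the factor that defines Treg cells, is known to occupy many of the same open regions as AP-1.

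The libraries were made from Treg cells of spleen and lymph nodes of mice that all carried Foxp3-AID, an allele encoding Foxp3 fused to an auxin-inducible degron, and that all received 5-ph-IAA. ROSA26-TIR1(F74G) mice (R26TIR1(F74G) below) also make the plant receptor TIR1 through which 5-ph-IAA marks the fusion protein for degradation, and ROSA26-WT mice (R26WT below) do not. There were 4 mice of each genotype on day 3 of treatment and 3 of each on day 7, 14 in all, with 1 library each. By the study's description the Foxp3 allele also expresses the ZsGreen reporter and Cre, which removes a stop cassette in front of TIR1 and mCherry, so that TIR1 is made in cells that have turned on Foxp3. The protein was the target of degradation, so accessibility cannot show whether it was lost, and the labels give no activation state, age or sex. In bulk accessibility, a change in every cell and a change in the share of cells that are open cannot be told apart.

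Counts in windows ranged from 5653289 to 20184487 per library, and intervals given here cover the spread between mice, not the counting of reads alone. The labelled cell type was checked at start sites. The Treg and T cell list, with start-site windows for 8 of 10 genes, had a summed start-site accessibility of 65.7 to 92.2 CPM (counts scaled to library size with TMM factors), of which Ctla4 held the most at 15.2 CPM. The B cell list, with start-site windows for 2 of 8 genes, reached 1.83 to 3.81 CPM. The NK cell list, with 1 of 3, reached 0.724 to 1.95 CPM. Myeloid genes, with 5 of 9, reached 16 to 22.6 CPM, of which Cebpb, also expressed by lymphocytes, held 12.6 CPM. The CD8 T cell pair reached 11.3 to 15.5 CPM, mostly at Cd8b1 (12.5 CPM). These sums rise with the number of windows in a list. The median start-site window was 11.4 CPM for the Treg and T cell list, 1.35 for B cell, 1.57 for myeloid and 6.91 for CD8 T cell genes. Over all genes with such a window it was 14.8 CPM. Cebpb and Cd8b1 lay above the Treg and T cell median.

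The promoters of 5 of the genes are shown because a strongly accessible window overlaps each of them and because sites for early response factors can be read in them. They are RefSeq promoters of GRCm38.p6, from 250 bases before to 50 bases after the start site, and capitals mark the motif matches described after them.
Fos, chr12:85473640-85473939, plus strand: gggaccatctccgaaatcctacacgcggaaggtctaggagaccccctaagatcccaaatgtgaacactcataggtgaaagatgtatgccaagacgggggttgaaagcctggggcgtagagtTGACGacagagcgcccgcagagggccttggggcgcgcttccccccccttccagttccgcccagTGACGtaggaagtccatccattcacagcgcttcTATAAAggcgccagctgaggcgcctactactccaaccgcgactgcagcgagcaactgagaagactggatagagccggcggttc
Fosb, chr7:19309996-19310295, minus strand: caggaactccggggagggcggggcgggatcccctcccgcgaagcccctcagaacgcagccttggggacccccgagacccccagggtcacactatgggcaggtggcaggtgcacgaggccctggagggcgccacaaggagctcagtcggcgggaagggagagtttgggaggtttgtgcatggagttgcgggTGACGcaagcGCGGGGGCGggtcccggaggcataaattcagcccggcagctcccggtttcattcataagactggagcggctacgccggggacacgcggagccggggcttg
Jun, chr4:95052173-95052472, minus strand: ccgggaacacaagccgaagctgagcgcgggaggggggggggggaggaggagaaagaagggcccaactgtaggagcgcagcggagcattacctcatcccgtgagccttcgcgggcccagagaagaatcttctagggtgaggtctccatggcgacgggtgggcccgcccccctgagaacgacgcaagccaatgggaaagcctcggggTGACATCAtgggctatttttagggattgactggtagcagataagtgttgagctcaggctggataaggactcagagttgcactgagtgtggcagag
Junb, chr8:84978699-84978998, minus strand: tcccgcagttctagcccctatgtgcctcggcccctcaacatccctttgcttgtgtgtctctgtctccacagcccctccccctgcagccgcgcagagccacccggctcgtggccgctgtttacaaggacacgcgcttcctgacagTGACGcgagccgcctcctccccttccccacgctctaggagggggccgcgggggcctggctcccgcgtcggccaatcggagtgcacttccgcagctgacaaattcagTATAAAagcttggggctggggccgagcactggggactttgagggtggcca
Egr2, chr10:67537316-67537615, plus strand: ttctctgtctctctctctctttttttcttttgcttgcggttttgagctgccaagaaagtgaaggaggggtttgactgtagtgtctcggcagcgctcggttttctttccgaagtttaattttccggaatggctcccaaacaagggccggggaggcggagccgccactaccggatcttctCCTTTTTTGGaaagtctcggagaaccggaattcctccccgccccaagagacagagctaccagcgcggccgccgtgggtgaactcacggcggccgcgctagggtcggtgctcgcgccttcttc

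In Fos the capitals are a pair of TGACG core sites of the cyclic AMP response element, the site bound by CREB and by some AP-1 dimers, and a TATAAA box at position -33, counted from the start site at 0. Fosb carried a TGACG core site at position -60 and the EGR site GCGNGGGCG at -50. Jun carried TGACNTCA, the site through which AP-1 and ATF proteins are known to act on the Jun promoter, at position -45. Junb carried a TGACG core site and a TATAAA box that begins at the annotated start, and the Egr2 entry shown carried a CArG box, the site of serum response factor, at position -72. Motifs were searched on both strands in the 11 RefSeq promoter entries of the 9 genes (5 of them Egr2, none Egr1 or Egr3) and in all 21263 entries. CArG boxes were found in 4 of the 11 entries, all of Egr2 and 3 of them overlapping copies of the same site, and in 1.52% of all entries. TGACG was found in 6 of 11 and 23.6% of all, TGACNTCA in 1 of 11 and 8.75%, TATAAA in 2 of 11 and 12.6%, and CCAAT, which was not put in capitals, in 5 of 11 and 38.2%. The entries with TGACG and those with CCAAT each include the same 3 overlapping Egr2 entries. GCGNGGGCG was found in 2 of 11 (Fosb and Fosl2) and 7.52% of all, and the AP-1 site TGANTCA in 0 of 11 and 6.99%. A match describes letters within these 300 bases and does not show binding.

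All 9 genes were accessible near their start in every mouse. The start-site window of a gene is the one whose centre lay nearest to its start, and since all windows have the same length their CPM can be compared between genes. Jun was the most accessible at 79.8 CPM over the 14 mice (range 67 to 88.8), rank 19 among 11444 genes with a window within 1 kb of the start, where the median was 14.8 CPM. Egr1 followed at 48.5 (37.3 to 61.7), Junb at 37.7 (25.3 to 43.6), Fos at 33.1 (21.2 to 39.7), Jund at 27.2 (22.1 to 32) and Fosb at 19.4 CPM (16.2 to 25.2). Egr2 at 7.74 (6.23 to 8.62), Fosl2 at 5.75 (3.5 to 6.79) and Egr3 at 4.32 CPM (2.86 to 5.36) were lower. Of the 8 neighbouring pairs in this order, Jun and Egr1 did not overlap over the 14 mice, nor did Fosb and Egr2, and the other 6 pairs overlapped. The order is one of position as well as of level, because the windows lie at different distances from the annotated starts.

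**Figure D1:**
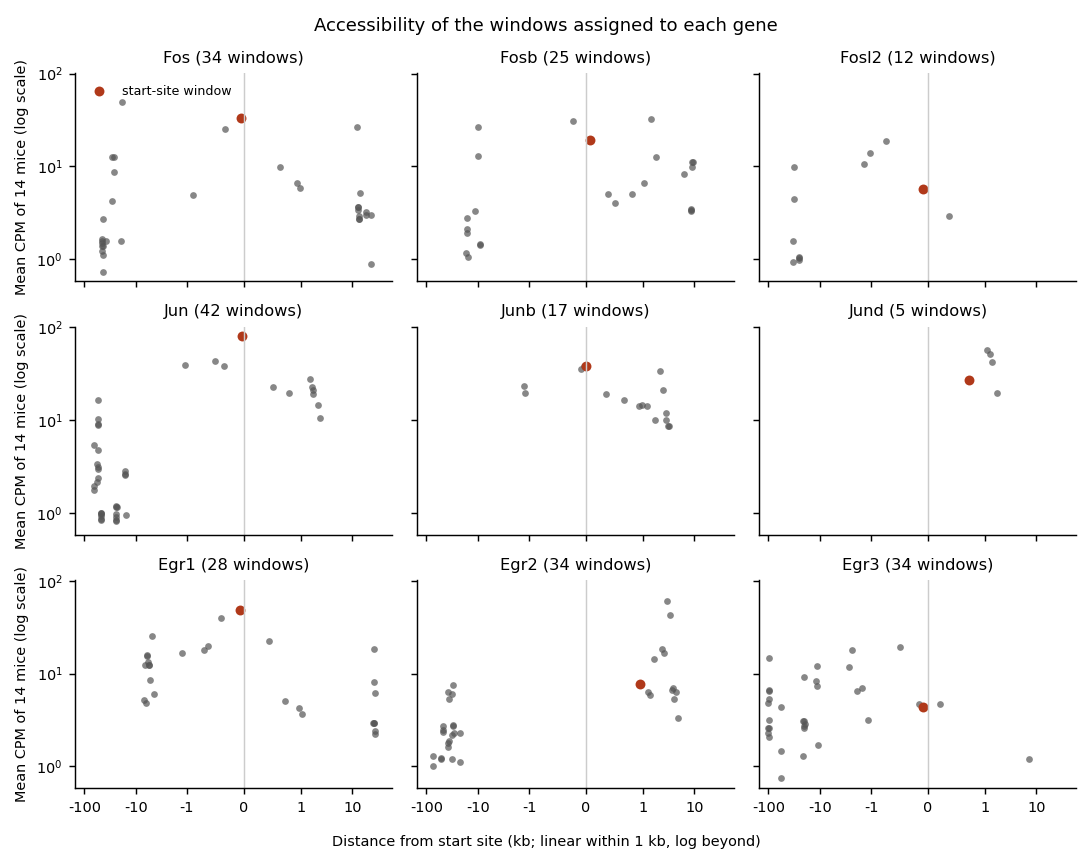
Mean accessibility over 14 mice (CPM, log axis) of each of the 231 windows against its distance from the start site of its gene (kb, linear within 1 kb and logarithmic beyond), with negative distances upstream. The start-site window, in red, is also the highest for Jun and Egr1, while Egr2 and Jund were most accessible inside the gene and Fos at a window more than 10 kb upstream.

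For Jun and Egr1 the start-site window was also the most accessible of the gene. Egr2 was most accessible at chr10:67537328-67537529, 2959 bp inside the gene record, at 61 CPM, which put it above 99.8% of all windows. That window lies whole within the Egr2 promoter shown, since RefSeq gives Egr2 further starts downstream of the first base of its record, which also overlaps the lncRNA Gm32255. Jund, the Jun family member that is expressed most constantly, had all 5 windows inside its single-exon gene body, from 712 to 1741 bp after the start, with the highest at chr8:70698710-70698911 (56.1 CPM). Fos was most accessible at chr12:85455258-85455459 (position -18532) in the lncRNA Gm38543, at 49 CPM, above its own start-site window. The highest window of Fosb was at chr7:19308592-19308793 inside the gene (32.4 CPM), that of Junb at chr8:84978681-84978882 (38.6), that of Egr3 at chr14:70076733-70076934 (19.4) and that of Fosl2 at chr5:32135635-32135836 (19 CPM).

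The most accessible windows more than 2 kb from a start were, besides those of Fos and Egr2, one of Junb at chr8:84976535-84976736 just past the end of the gene (33.7 CPM), one of Fosb at chr7:19320011-19320212 (26.7) and one of Egr1 at chr18:34856261-34856462 (25.7 CPM). Egr3 had such a window at chr14:70074836-70075037 (17.9 CPM), Jun at chr4:95106398-95106599 in the antisense lncRNA Junos (16.6) and Fosl2 at chr5:32104191-32104392 (9.9 CPM). Over all 240778 windows the median was 1.80 CPM. Summed over all windows of a gene, Jun reached 453, Egr1 356, Junb 336, Egr2 259, Fos 250.2, Fosb 221, Jund 195, Egr3 192 and Fosl2 72.1 CPM. A sum over windows also rises with their number.

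Values of the Fos family are given by mouse, in the order of the replicate numbers. Fos, the partner of Jun in the classical AP-1 dimer, had at its start-site window (chr12:85473731-85473932) 28.9, 32.1, 34.6 and 39.7 CPM in R26WT and 31.5, 39.3, 21.2 and 28.2 CPM in R26TIR1(F74G) mice on day 3. On day 7 it had 35.4, 34.9 and 31.6 CPM in R26WT and 37.5, 30.9 and 37.6 CPM in R26TIR1(F74G) mice. The genotypes overlapped on both days, and the lowest value was that of R26TIR1(F74G) replicate 3 on day 3. The log2 fold change of R26TIR1(F74G) over R26WT was 0.052 (SE 0.12, 95% interval -0.19 to 0.29, adjusted p = 0.979) on day 7 and -0.17 (SE 0.13, 95% interval -0.43 to 0.087, adjusted p = 0.803) on day 3, by the quasi-likelihood test of edgeR. Adjusted p-values here are Benjamini-Hochberg values from that tool over all windows tested, or over all genes for summed windows, unless DESeq2 is named. At the upstream window of Fos in Gm38543 the values were 47.4, 45.8, 54.7 and 63 CPM in R26WT and 49.1, 50.9, 37.3 and 43.5 in R26TIR1(F74G) mice on day 3. On day 7 they were 54.1, 52.9 and 40.6 CPM in R26WT and 49.1, 47.5 and 50.6 CPM in R26TIR1(F74G) mice. This window overlapped between genotypes on both days, and its lowest value too was that of R26TIR1(F74G) replicate 3 on day 3.

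Fosb, which like Fos carries a transactivation domain, had at its start-site window (chr7:19309943-19310144) 16.2, 16.3, 21.2 and 20.2 CPM in R26WT and 16.2, 24.6, 17 and 18 CPM in R26TIR1(F74G) mice on day 3. Fosb had 20.7, 19.6 and 17.5 CPM in R26WT and 25.2, 18.2 and 20.9 CPM in R26TIR1(F74G) mice on day 7. The genotypes overlapped on both days, at log2 fold changes of 0.14 (SE 0.13, adjusted p = 0.926) on day 7 and 0.055 (SE 0.13, adjusted p = 0.958) on day 3. Fosl2, which encodes Fra-2, had at chr5:32136287-32136488 5.02, 6.68, 6.35 and 6.79 CPM in R26WT and 5.75, 5.9, 3.5 and 5.79 CPM in R26TIR1(F74G) mice on day 3. Fosl2 had 5.94, 6.22 and 3.9 CPM in R26WT and 6.58, 5.72 and 6.32 CPM in R26TIR1(F74G) mice on day 7. R26TIR1(F74G) replicate 3 on day 3 and R26WT replicate 3 on day 7 were the lowest libraries at Fosl2. The groups overlapped, at log2 fold changes of 0.15 (SE 0.17, adjusted p = 0.945) on day 7 and -0.26 (SE 0.18, adjusted p = 0.765) on day 3.

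Jun, the founding member of its family, had at its start-site window (chr4:95052154-95052355), which covers the TGACNTCA site shown, 67, 74.5, 85.5 and 87.3 CPM in R26WT and 87, 75.4, 76.5 and 81.2 CPM in R26TIR1(F74G) mice on day 3. On day 7 it had 83.3, 80.4 and 69.9 CPM in R26WT and 88.8, 80.3 and 80.5 CPM in R26TIR1(F74G) mice. Jun varied little between mice and the genotypes overlapped, at log2 fold changes of 0.090 (SE 0.11, 95% interval -0.13 to 0.31, adjusted p = 0.95) on day 7 and 0.022 (SE 0.11, 95% interval -0.19 to 0.23, adjusted p = 0.981) on day 3. Junb, a partner of BATF in T cells, had at chr8:84978648-84978849 33.1, 35.3, 42.3 and 43.6 CPM in R26WT and 43, 33.9, 25.3 and 33.9 CPM in R26TIR1(F74G) mice on day 3. Junb had 38.8, 39.5 and 33.4 CPM in R26WT and 42.5, 39.7 and 43.5 CPM in R26TIR1(F74G) mice on day 7. At Junb all 3 R26TIR1(F74G) mice on day 7 lay above the 3 R26WT mice by a narrow margin (39.7 against 39.5 CPM). The log2 fold change was 0.16 (SE 0.11, 95% interval -0.073 to 0.39, adjusted p = 0.903). On day 3 the genotypes overlapped at Junb, at -0.20 (SE 0.12, 95% interval -0.45 to 0.047, adjusted p = 0.739). Jund had at chr8:70698351-70698552 26.7, 27.2, 30.5 and 32 CPM in R26WT and 23.6, 26.9, 22.1 and 24.7 CPM in R26TIR1(F74G) mice on day 3. Jund had 27.5, 26.7 and 26.5 CPM in R26WT and 28.3, 28 and 29.5 CPM in R26TIR1(F74G) mice on day 7. The genotypes overlapped at Jund on day 3 and did not overlap on day 7, with log2 fold changes of -0.26 (SE 0.12, 95% interval -0.49 to -0.020, adjusted p = 0.632) on day 3 and 0.087 (SE 0.12, 95% interval -0.15 to 0.32, adjusted p = 0.957) on day 7. Of all windows within 1 kb of a start site, 7.38% did not overlap on day 7 with R26TIR1(F74G) mice higher, and 4.82% with them lower.

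Egr1, the widely expressed member of its family, had at its start-site window (chr18:34861030-34861231) 48.9, 47.6, 49.1 and 61.7 CPM in R26WT and 44.8, 51.3, 37.3 and 41.9 CPM in R26TIR1(F74G) mice on day 3. Egr1 had 51.5, 54.3 and 40.04 CPM in R26WT and 55.7, 43.3 and 51.9 CPM in R26TIR1(F74G) mice on day 7. R26WT replicate 4 on day 3 was the highest and R26TIR1(F74G) replicate 3 on day 3 the lowest. The genotypes overlapped on both days, at log2 fold changes of -0.24 (SE 0.11, 95% interval -0.47 to -0.013, adjusted p = 0.641) on day 3 and 0.037 (SE 0.12, 95% interval -0.21 to 0.28, adjusted p = 0.987) on day 7. Egr2 had at its start-site window (chr10:67535316-67535517) 6.23, 8.4, 6.76 and 8.62 CPM in R26WT and 8.09, 7.62, 7.38 and 8.29 CPM in R26TIR1(F74G) mice on day 3. Egr2 had 7.69, 8.02 and 8.25 CPM in R26WT and 8.56, 7.93 and 6.48 CPM in R26TIR1(F74G) mice on day 7. At its most accessible window, over the CArG box shown, Egr2 had 55.4, 58.7, 63.6 and 65.2 CPM in R26WT and 61.5, 65.2, 56.9 and 57.9 CPM in R26TIR1(F74G) mice on day 3. This window of Egr2 had 64, 68.4 and 52.6 CPM in R26WT and 65.9, 57.9 and 60.6 CPM in R26TIR1(F74G) mice on day 7. Both Egr2 windows overlapped between genotypes on both days. The log2 fold change of the start-site window was -0.057 (SE 0.16, 95% interval -0.37 to 0.26, adjusted p = 0.983) on day 7 and 0.048 (SE 0.15, 95% interval -0.26 to 0.36, adjusted p = 0.971) on day 3. Egr3 had at chr14:70077119-70077320 2.86, 3.9, 4.44 and 5.02 CPM in R26WT and 4.5, 4.45, 4.62 and 4.34 CPM in R26TIR1(F74G) mice on day 3. Egr3 had 4.59, 2.91 and 4.8 CPM in R26WT and 5.03, 3.64 and 5.36 CPM in R26TIR1(F74G) mice on day 7, so that the genotypes overlapped on both days. Its log2 fold changes were 0.25 (SE 0.21, adjusted p = 0.916) on day 7 and 0.12 (SE 0.19, adjusted p = 0.924) on day 3, the widest errors of the 9 genes, at the lowest level.

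**Figure D2:**
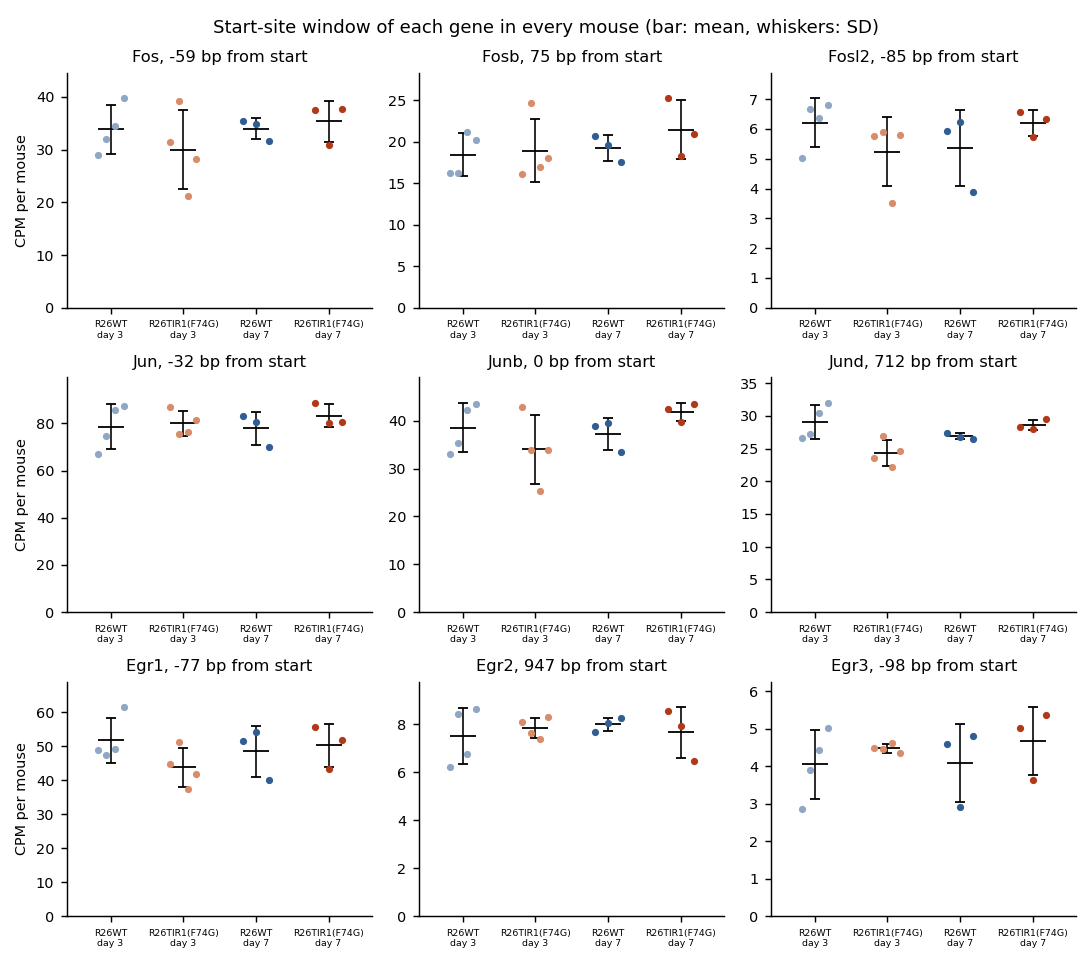
Accessibility (CPM) of the start-site window of each gene in every mouse, by genotype and day, with the mean (bar) and SD (whiskers) of each group of 3 or 4 mice. The groups overlap for most genes, on day 7 the R26TIR1(F74G) mice lie above the R26WT mice at Junb and Jund, and R26TIR1(F74G) replicate 3 on day 3 is the lowest of the 14 for Fos, Fosl2, Junb, Jund and Egr1. On day 7 they also lie above without overlap at 7.38% of all windows within 1 kb of a start site.

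Whether loss of Foxp3 changed accessibility at these genes was asked first on day 7. None of the 231 windows passed an adjusted p of 0.05 (smallest 0.608), against 0.00463% of all 237811 windows tested, and none passed in DESeq2. At an unadjusted p under 0.05, 6 windows were higher in R26TIR1(F74G) mice and 8 lower, 2.6% and 3.46% of the 231, where 2.77% and 3.2% of all windows were. The genotypes did not overlap at 19 windows where R26TIR1(F74G) mice were higher and 13 where they were lower (8.23% and 5.63%), against 5.81% and 6.02% of all windows. The shares at an unadjusted p were near the background, and without R26TIR1(F74G) replicate 3 of day 7 there were 2 higher and 4 lower, without replicate 1 2 and 7, and without replicate 2 10 and 9. The median log2 fold change was 0.011 over the 231 windows and -0.0065 over all.

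The windows with the smallest p on day 7 were a pair that overlap each other far upstream of Egr2 and a pair of Fos windows. At chr10:67487606-67487807, Egr2 had 3.49, 3.55 and 3.45 CPM in R26WT and 2.03, 2.21 and 1.92 CPM in R26TIR1(F74G) mice on day 7, and 1.82, 3.04, 3.28 and 3.3 CPM in R26WT and 1.98, 2.74, 2.61 and 2.33 CPM in R26TIR1(F74G) mice on day 3. The genotypes did not overlap on day 7 and overlapped on day 3, with a log2 fold change on day 7 of -0.77 (SE 0.23, 95% interval -1.23 to -0.31, adjusted p = 0.608). The window chr10:67487552-67487753, which shares most of its bases, gave -0.74 (SE 0.25, adjusted p = 0.687) on day 7. Inside Fos at chr12:85474415-85474616, R26WT mice had 9.11, 10.1 and 7.65 CPM and R26TIR1(F74G) mice 12.7, 10.2 and 12.6 CPM on day 7. These did not overlap by a narrow margin, at a log2 fold change of 0.38 (SE 0.15, adjusted p = 0.777). A far upstream Fos window at chr12:85428052-85428253, of 1.37 CPM on average, gave 0.82 (SE 0.34, adjusted p = 0.801).

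Summed over all windows of a gene, none of the 9 genes passed on day 7 (smallest adjusted p 0.721). Over all 15863 genes tested, 0% did, by edgeR. At an unadjusted p under 0.05 there were 0 of 9, where 3.69% and 3.66% of all genes were higher and lower, and DESeq2 called 0 of 9. Junb had 349, 362 and 312 CPM in R26WT and 376, 338 and 369 CPM in R26TIR1(F74G) mice. The log2 fold change was 0.083 (SE 0.053, 95% interval -0.032 to 0.20, adjusted p = 0.721). Fosb gave 0.10 (SE 0.064, 95% interval -0.040 to 0.24, adjusted p = 0.723) and Jund 0.10 (SE 0.065, 95% interval -0.042 to 0.24, adjusted p = 0.729). Jun (0.066), Egr1 (0.058), Fos (0.0078), Fosl2 (-0.0028), Egr2 (-0.010) and Egr3 (-0.0094) lay nearer to 0. In folds, the 95% intervals of the 9 genes ran from 0.889 (Fosl2) to 1.18 (Fosb).

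On day 3, again none of the 231 windows passed an adjusted p of 0.05 (smallest 0.462), as for 0% of all 235515 windows tested, and none passed in DESeq2. At an unadjusted p under 0.05, 15 windows were lower in R26TIR1(F74G) mice and 5 higher, 6.49% and 2.16% of the 231, where 3.63% and 3.92% of all windows were. Within 1 kb of a start site, 7.69% of the 39 windows were lower and 0% higher, against 6.45% and 2.11% of all such windows. More than 2 kb away, 4.82% of the 166 windows were lower and 3.01% higher, against 2.88% and 4.47%. The genotypes did not overlap at 9 windows with R26TIR1(F74G) mice lower and 3 with them higher (3.9% and 1.3%), against 2.11% and 2% of all windows. The median log2 fold change of the 231 windows was -0.070, and without R26TIR1(F74G) replicate 3 it was -0.018 with 11 windows lower and 5 higher. Without R26WT replicate 4 there were 6 lower and 4 higher, the fewest lower of these fits. Without R26TIR1(F74G) replicate 2 there were 21 lower and 6 higher, the most, so that the number lower depends on single libraries. With loess offsets, a scaling that depends on the count, 12 and 10 windows were lower and higher, where 3.16% and 3.6% of all windows were, and the median was -0.020. With total counts 14 and 6 were lower and higher, where 2.35% and 5.46% of all windows were, and the median was -0.017. The size of the imbalance thus depended on the scaling.

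At chr5:32104191-32104392 upstream of Fosl2, R26WT mice had 9.26, 10.3, 11.7 and 13.6 CPM and R26TIR1(F74G) mice 8.99, 7.78, 7.53 and 8.93 CPM on day 3. It had 12.3, 10.9 and 9.3 CPM in R26WT and 9.25, 10.4 and 8.3 CPM in R26TIR1(F74G) mice on day 7. The 4 R26TIR1(F74G) mice on day 3 lay below the 4 R26WT mice, at a log2 fold change of -0.46 (SE 0.15, 95% interval -0.75 to -0.16, adjusted p = 0.495). At chr14:70065825-70066026 upstream of Egr3, the values were 12.9, 15.7, 14 and 14.2 CPM in R26WT and 11.2, 12.3, 10.2 and 9.73 CPM in R26TIR1(F74G) mice on day 3. This window of Egr3 had 11.6, 10.00 and 10.9 CPM in R26WT and 10.7, 12.3 and 11.6 CPM in R26TIR1(F74G) mice on day 7. This Egr3 window also did not overlap on day 3, at -0.39 (SE 0.14, 95% interval -0.66 to -0.12, adjusted p = 0.52), and the R26WT mice of day 3 were the highest of the 4 groups. A pair of weakly accessible windows upstream of Fosb had the smallest p among those higher in R26TIR1(F74G) mice. At chr7:19325637-19325838 they had 1.13, 0.198, 1.02 and 0.472 CPM in R26WT and 1.44, 1.61, 1.49 and 1.93 CPM in R26TIR1(F74G) mice. The log2 fold change was 1.25 (SE 0.38, 95% interval 0.50 to 2.0, adjusted p = 0.462). At chr7:19318977-19319178 it was 0.93 (SE 0.32, adjusted p = 0.514).

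Summed over windows, 0 of the 9 genes passed on day 3, where 17 of 15867 genes did (0.107%), and DESeq2 called 0 of 9. Egr3 and Egr1, 2 of 9, were lower at an unadjusted p under 0.05, where 8.41% and 7.64% of all genes were higher and lower. Egr3 had 192, 212, 196 and 225 CPM in R26WT and 185, 191, 171 and 169 CPM in R26TIR1(F74G) mice. These did not overlap, with a log2 fold change of -0.15 (SE 0.054, 95% interval -0.26 to -0.037, adjusted p = 0.203). Of the 34 windows in the Egr3 sum, 10 lay within 10 kb of its start. The farthest lay inside the gene Pebp4, among them chr14:69977678-69977879 (position -99539), at -0.47 (SE 0.18, adjusted p = 0.559) on day 3. That window was among those lower at an unadjusted p under 0.05, so the Egr3 sum does not describe its promoter alone. Egr1 had 361, 346, 367 and 411 CPM in R26WT and 351, 363, 279.6 and 318 CPM in R26TIR1(F74G) mice. These overlapped, with a log2 fold change of -0.12 (SE 0.055, 95% interval -0.24 to -0.0088, adjusted p = 0.284). Jund gave -0.18 (SE 0.087, 95% interval -0.36 to 0.0045, adjusted p = 0.323) and Fosl2 -0.15 (SE 0.081, 95% interval -0.32 to 0.021, adjusted p = 0.374). Junb (-0.072), Fos (-0.059), Jun (0.040), Fosb (0.072) and Egr2 (0.090) lay nearer to 0. The 95% intervals of the 9 genes ran from 0.779-fold (Jund) to 1.17-fold (Fosb). Spread between mice was taken from the fit over all 14 libraries with terms for day and genotype. That fit holds the same genotype difference for both days, so a difference that changes between days counts as spread. Jund had a larger spread than usual for its level, with a dispersion 2.27 times the trend. Junb (1.52), Fosb (1.43) and Fos (1.43) were also above the trend, and Jun (0.806) and Egr2 (0.788) were below it.

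**Figure D3:**
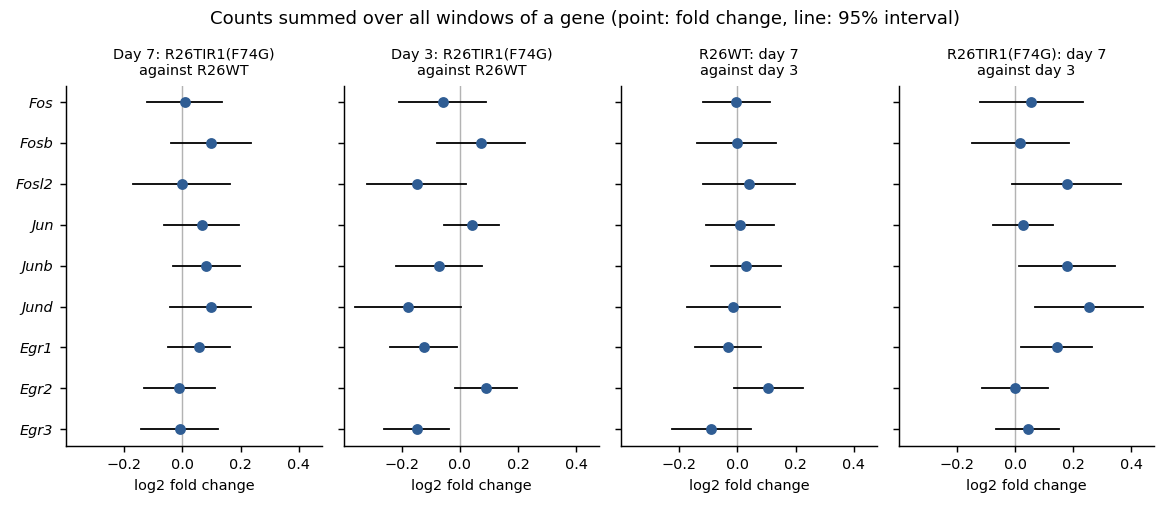
Log2 fold changes of the counts summed over all windows of each gene, with 95% intervals, for the genotypes on day 7 and day 3 and for day 7 against day 3 within each genotype. No gene passed an adjusted p of 0.05, and the points with intervals off 0 are Egr1 and Egr3 on day 3 and Junb, Jund and Egr1 between days in R26TIR1(F74G) mice.

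With both days in one model that also held day, 0 of 231 windows passed (smallest adjusted p 0.405), against 0.0112% of all 240778. DESeq2 called 155 windows over the whole series, and 1 of them belonged to these genes, chr18:34856261-34856462 upstream of Egr1. It had 26.1, 27.8, 27.3 and 27.6 CPM in R26WT and 22.8, 22.9, 19.97 and 22.9 CPM in R26TIR1(F74G) mice on day 3. This window of Egr1 had 31.7, 27.5 and 29.8 CPM in R26WT and 20.6, 26.7 and 25.9 CPM in R26TIR1(F74G) mice on day 7. Every R26TIR1(F74G) mouse lay below every R26WT mouse of the same day, with a log2 fold change over both days of -0.29 (SE 0.085, 95% interval -0.46 to -0.12, adjusted p = 0.405) in edgeR and an adjusted p of 0.034 in DESeq2. The Egr1 start-site window gave -0.12 (SE 0.088, adjusted p = 0.865). Of the 231, 14 windows were lower and 2 higher in R26TIR1(F74G) mice at an unadjusted p under 0.05, against 3.57% and 3.16% of all windows. More than 2 kb from a start, 8.43% were lower and 1.2% higher, against 3.34% and 3.44% of all such windows. Within 1 kb 0% were lower or higher, against 4.55% and 2.07%. Leaving out single mice gave from 9 lower and 2 higher (without R26WT replicate 4 of day 3) to 17 and 6 (without R26WT replicate 3 of day 7). Lower and higher windows numbered 10 and 7 with total counts and 13 and 7 with loess offsets. The median of the 231 windows, -0.016, turned to 0.016 and 0.014. Over all windows the median was 0.0034, and 0.035 and 0.0036 under these scalings. The window upstream of Fosl2 described for day 3 was among them at -0.36 (SE 0.11, adjusted p = 0.421). The upstream Fosb windows gave 0.89 (SE 0.29, adjusted p = 0.515) and 0.52 (SE 0.25, adjusted p = 0.718). On summed windows 0 of 9 genes passed in edgeR or DESeq2 and 0 of 9 had an unadjusted p under 0.05, against 0.0189% of genes passing and 6.56% and 6.67% higher and lower at that p. Egr3 stood at -0.087 (SE 0.042, 95% interval -0.17 to 0.00097, adjusted p = 0.385) and Fosb at 0.085 (SE 0.053, 95% interval -0.025 to 0.20, adjusted p = 0.499).

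Whether the genotypes differed more on one day than on the other was tested with the interaction of day and genotype, a positive value meaning a higher ratio of R26TIR1(F74G) to R26WT on day 7. None of 231 windows (smallest adjusted p 0.679) or 9 summed genes passed, in edgeR or DESeq2, as for 0% of windows and 0% of genes overall. At an unadjusted p under 0.05, 11 windows were positive and 1 negative, against 2.75% and 3.57% of all windows. Leaving out single mice moved the number positive to between 4 (without R26TIR1(F74G) replicate 4 of day 3) and 21 (without R26TIR1(F74G) replicate 2 of day 3). Without R26WT replicate 3 of day 3 the numbers were 6 and 6, so that the imbalance rests on single libraries. Positive and negative windows numbered 5 and 1 with loess offsets (median 0.038), 8 and 4 with total counts and 4 and 3 with the replicate number as a block. Within 1 kb of a start site, 10.3% of the 39 windows were positive and 0% negative, against 5.2% and 1.82% of all such windows. More than 2 kb away, 3.01% of the 166 windows were positive and 0.602% negative, against 2.11% and 4.07%. The median was 0.10 over the 231 windows and -0.013 over all windows. Within 1 kb of a start site it was 0.15 over the 39 windows and 0.094 over all such windows. On summed windows 2 of 9 genes were positive at an unadjusted p under 0.05, where 4.3% and 5.6% of all genes were positive and negative. One was Egr1, at 0.18 (SE 0.080, 95% interval 0.014 to 0.34, adjusted p = 0.472). The other was Jund, at 0.27 (SE 0.13, 95% interval 0.0074 to 0.54, adjusted p = 0.49). Junb gave 0.15 (SE 0.10, 95% interval -0.059 to 0.36, adjusted p = 0.619). The smallest p belonged to chr5:32135340-32135541 (position -1032 of Fosl2), at a log2 interaction of 0.58 (SE 0.20, 95% interval 0.19 to 0.98, adjusted p = 0.679). At the upstream Egr3 window it was 0.48 (SE 0.20, adjusted p = 0.756). Negative values were led by a Fos window at chr12:85492126-85492327, at -0.67 (SE 0.32, adjusted p = 0.784), and the Fosb window at chr7:19318977-19319178, at -0.96 (SE 0.49, adjusted p = 0.792).

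The comparisons of day 7 with day 3 use the same libraries as those between genotypes, so their values are set side by side and are not separate evidence. In R26WT mice 0 of 230 windows passed (smallest adjusted p 0.884), in edgeR or DESeq2, against 0.003% of all windows. There were 2 higher and 4 lower on day 7 at an unadjusted p under 0.05 where 2.6% and 2.65% of all windows were, and 8 and 4 with total counts and 10 and 4 with loess offsets. On summed windows 0 of 9 genes passed and 0 had an unadjusted p under 0.05, against 0% of genes passing and 2.74% and 2.24% higher and lower at that p. The values ran from -0.089 for Egr3 to 0.11 for Egr2. The windows with the smallest p were the upstream one of Egr3, at -0.39 (SE 0.14, adjusted p = 0.884), its neighbour at chr14:70065589-70065790, at -0.33 (SE 0.16, adjusted p = 0.94), and chr10:67535705-67535906 inside Egr2, at 0.36 (SE 0.17, adjusted p = 0.944). A weak Jun window at chr4:95117072-95117273 gave 0.57 (SE 0.27, adjusted p = 0.945).

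In R26TIR1(F74G) mice 0 of 231 windows passed (smallest adjusted p 0.316), in edgeR or DESeq2, as for 0% of all windows. At an unadjusted p under 0.05, 19 windows were higher on day 7 and 8 lower, 8.23% and 3.46% of the 231, where 2.91% and 4.05% of all windows were. Within 1 kb of a start site, 17.9% of the 39 windows were higher and 0% lower, against 6.08% and 2.06% of all such windows. More than 2 kb away, 3.61% of the 166 windows were higher and 4.82% lower, against 2.08% and 4.61%. Without R26TIR1(F74G) replicate 3 of day 3 there were 7 higher and 8 lower, without replicate 2 of day 3 34 higher and 6 lower, and without replicate 3 of day 7 8 higher and 4 lower. Of all windows, 4.4% and 4.77% were higher and lower without replicate 2 of day 3. Higher and lower windows numbered 11 and 9 with loess offsets, with a median of 0.041 in place of 0.086, and 11 and 3 with the replicate block. At chr5:32135340-32135541 the values were 9.71, 13.9, 9.54 and 11.1 CPM on day 3 and 18.6, 14.8 and 14.9 CPM on day 7 in R26TIR1(F74G) mice, and 17, 13.4, 14.8 and 14.3 CPM on day 3 and 14.7, 14.2 and 13.2 CPM on day 7 in R26WT mice. The days did not overlap in R26TIR1(F74G) mice, at a log2 fold change of 0.52 (SE 0.14, 95% interval 0.23 to 0.80, adjusted p = 0.316). Without replicate 2 of day 3 this window passed at an adjusted p of 0.0369, in a fit where 364 windows of the whole series passed. Inside Junb at chr8:84978290-84978491, R26TIR1(F74G) mice had 17.8, 18.7, 12.7 and 16.6 CPM on day 3 and 22.2, 20.2 and 22.6 CPM on day 7, without overlap, at 0.40 (SE 0.13, 95% interval 0.15 to 0.66, adjusted p = 0.434). Of all windows, 3.47% were higher on day 7 without overlap between these days. Of all windows within 1 kb of a start site, 6.52% were. The windows with the smallest p among those lower on day 7 were weak ones of Fosb at chr7:19325889-19326090, with -0.75 (SE 0.26, adjusted p = 0.502), and of Jun at chr4:95075681-95075882 in Junos, with -1.03 (SE 0.38, adjusted p = 0.571).

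On summed windows 0 of 9 genes passed between days in R26TIR1(F74G) mice, in edgeR or DESeq2, as for 0% of all 15874 genes. At an unadjusted p under 0.05, 3 were higher on day 7 and 0 lower, where 4.55% and 6.06% of all genes were higher and lower. Jund had 157, 209.6, 142 and 181 CPM on day 3 and 209.9, 202 and 225 CPM on day 7, a log2 fold change of 0.25 (SE 0.087, 95% interval 0.069 to 0.44, adjusted p = 0.355). Junb gave 0.18 (SE 0.077, 95% interval 0.015 to 0.34, adjusted p = 0.43), Egr1 0.14 (SE 0.057, 95% interval 0.022 to 0.26, adjusted p = 0.399) and Fosl2 0.18 (SE 0.088, 95% interval -0.0094 to 0.36, adjusted p = 0.49). The days overlapped at Jund, whose values in R26WT mice were 183, 177, 223 and 230.3 CPM on day 3 and 206, 217 and 171 CPM on day 7.

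**Figure D4:**
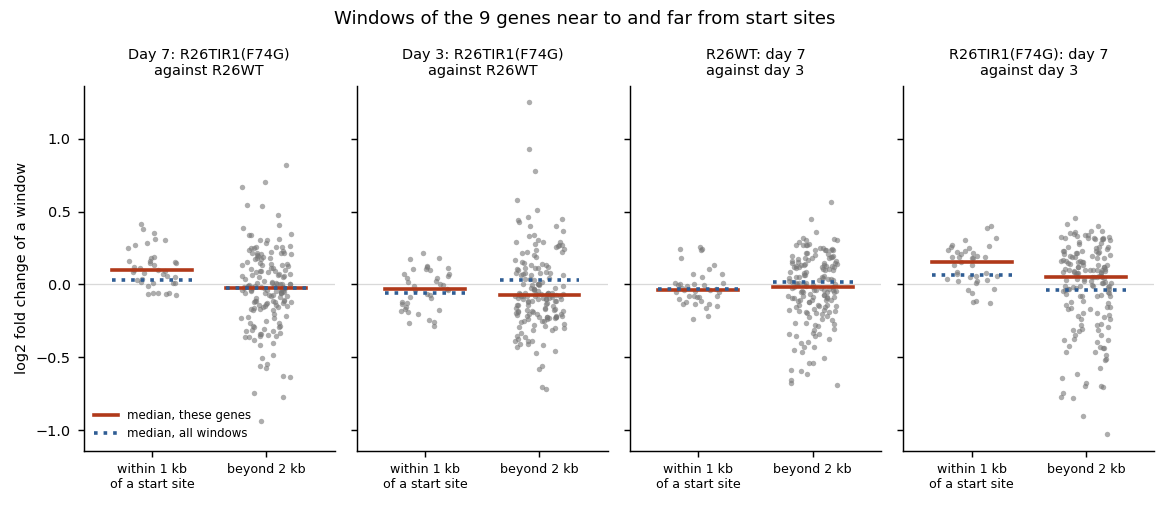
Log2 fold change of each window of the 9 genes, with centres within 1 kb of the start site (39 windows) or more than 2 kb away (166 windows), in the genotype comparisons of day 7 and day 3 and between days within each genotype. Red lines are the medians of these windows and dotted blue lines the medians of all windows at the same distances from any start site, and for windows within 1 kb the red and blue lines lie on the same side of 0 in each panel.

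Medians of the windows near the 9 start sites were set beside those near start sites in general. They lay on the same side of 0 in the genotype comparisons of each day and between days within each genotype. With both days in one model they did not, at 0.0080 over the 39 windows within 1 kb against -0.016 over all such windows. Within 1 kb, the median log2 fold change of the 39 windows was 0.10 on day 7 and -0.030 on day 3 between genotypes, against 0.030 and -0.060 over all windows within 1 kb of any start. Between days in R26TIR1(F74G) mice it was 0.16 against 0.062, and in R26WT mice -0.040 against -0.030. More than 2 kb from the start, the 166 windows had medians of -0.022 on day 7 and -0.075 on day 3, against -0.022 and 0.033.

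Libraries differed in the share of their counts that lay within 1 kb of any protein-coding start site, from 42.4% to 46.6%. The correlation of accessibility with this share had an adjusted permutation p under 0.05 for the start-site windows of 6 of the 9 genes, with r from 0.66 upwards. All start-site windows are part of the share, and over 9108 of those of other genes the median r was 0.55 and 33.7% reached that value, so nothing particular to these genes can be read from it. The share was lowest in R26TIR1(F74G) replicate 3 on day 3 and R26WT replicate 3 on day 7. Over 14 libraries, Pearson's r between the share and the log2 CPM of the Egr1 window was 0.90 (permutation p = 1e-05, the smallest that 100000 permutations can give, adjusted over the 9 genes 9e-05). Spearman's rho was 0.85 (permutation p = 0.00026, adjusted 0.00099). Without the libraries farthest from the median share, those 2 just named, r was 0.83, and within day 3 and day 7 it was 0.91 and 0.88. For Fosl2 r was 0.87 and rho 0.81 (adjusted permutation p = 0.00057 and 0.00135, r without the 2 libraries 0.62). For Fos they were 0.82 and 0.85 (adjusted permutation p = 0.00057 and 0.00099, r without the 2 libraries 0.87). Jund gave 0.80 and 0.87 (adjusted permutation p = 0.00106 and 0.00099, then 0.87), Junb 0.70 and 0.63 (adjusted permutation p = 0.00866 and 0.0287, then 0.40) and Fosb 0.66 and 0.75 (adjusted permutation p = 0.0158 and 0.00536, then 0.71).

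Jun did not pass, at an r of 0.47 and rho 0.42 (adjusted permutation p = 0.116 and 0.17, r without the 2 libraries 0.24). Egr2 did not pass either, at -0.094 and -0.011 (adjusted permutation p = 0.853 and 0.976), nor did Egr3, at 0.001 and 0.17 (adjusted permutation p = 0.997 and 0.622). For Egr2 this describes only its start-site window of 7.74 CPM. Its most accessible window, of 61 CPM and within the Egr2 promoter shown, was not compared with the share. The relation of Junb fell below 0.5 without the 2 libraries and rests in part on them. Within day 3, r was 0.93 for Fos, 0.67 for Fosb, 0.81 for Fosl2, 0.23 for Jun, 0.68 for Junb and 0.95 for Jund. Within day 7 it was 0.72, 0.64, 0.98, 0.86, 0.91 and 0.58. On day 3 the share was lower in R26TIR1(F74G) mice (42.4% to 46.0%, median 43.9%) than in R26WT mice (44.6% to 46.6%, median 45.6%), with overlap. Its part in the day 3 values of Egr1, Fos, Fosl2, Junb and Jund was not tested.

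**Figure D5:**
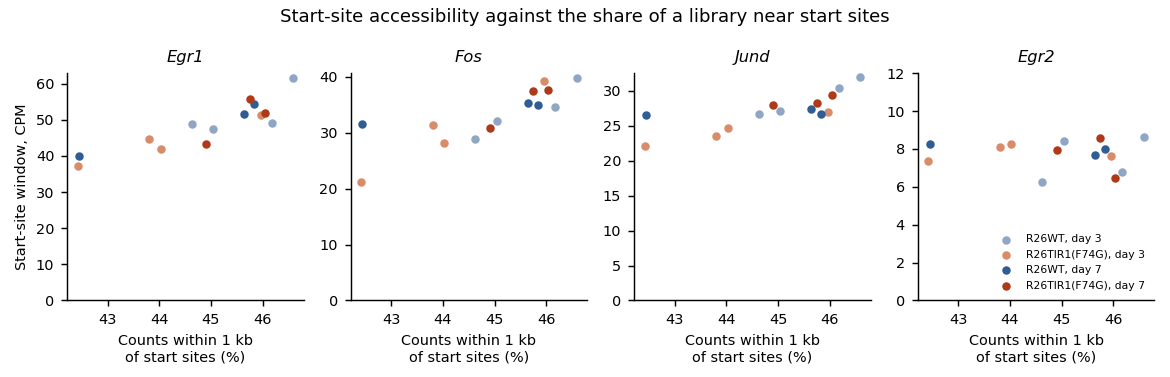
Start-site window accessibility (CPM) of Egr1, Fos, Jund and Egr2 in each of 14 mice against the percentage of counts of that library within 1 kb of protein-coding start sites. The points of Egr1, Fos and Jund rise with the share, those of Egr2 do not, and the lowest shares belong to R26TIR1(F74G) replicate 3 of day 3 and R26WT replicate 3 of day 7. For Egr2 the window shown is the one nearest to the first base of its gene record, not its most accessible window.

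Among themselves the start-site windows of the 9 genes had a median Pearson correlation over the 14 mice of 0.44, from -0.067 for Jund and Egr2 to 0.84 for Fos and Egr1, and 35 of 36 pairs were positive. These points share library, depth and the share of counts near start sites. Of 9108 start-site windows of other genes whose counts averaged 50 or more, the 5 most like the mean of the 9 were those of Pank4 (r 0.94 over 14 libraries), Kctd5 (0.93), Nr4a3 (0.92), which is an early response gene itself, Rpia (0.92) and Ctnna3 (0.92).

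The other genes of these pathways were counted on their summed windows, from lists chosen with earlier results of these data known. No gene of any list passed an adjusted p of 0.05 in any of the 6 comparisons in edgeR. The counts that follow are those higher and lower in R26TIR1(F74G) mice at an unadjusted p under 0.05, where 3.69% and 3.66% of all genes were on day 7 and 8.41% and 7.64% on day 3. Of 25 AP-1 relatives and partners such as Batf, Maf and Atf family genes, 22 had windows. On day 7, 1 was higher and 1 lower at an unadjusted p under 0.05 (median log2 fold change 0.028), on day 3 3 and 2 (-0.0039). The 17 inducers with windows, which lead from receptors to these promoters, gave 0 and 1 on day 7 (-0.031) and 1 and 1 on day 3 (-0.014). The 5 EGR partners and regulators with windows gave 0 and 0 on day 7 (0.047) and 0 and 1 on day 3 (-0.024). The 31 other early response genes gave 1 and 1 on day 7 (0.019) and 4 and 1 on day 3 (-0.004). The 10 Treg and T cell markers gave 1 and 1 on day 7 (-0.084) and 0 and 5 on day 3 (-0.13). Markers of the sorted cells with an unadjusted p under 0.05 thus lay below 0 on the same day as Egr1 and Egr3. Their part in those values was not tested. Markers of other cells gave on day 7 0 and 2 of 7 for myeloid genes and 0 and 0 for B, NK and CD8 T cell genes. On day 3 they gave 0 and 1 for myeloid, 1 and 0 of 3 for NK and 0 and 0 for B and CD8 T cell genes. Heat shock genes, which respond to handling of cells as early response genes can, gave 6 and 0 of 16 on day 7 (0.15) and 0 and 1 on day 3 (-0.033). Between days the same genes gave 0 higher and 7 lower on day 7 in R26WT mice (-0.14) and 1 and 0 in R26TIR1(F74G) mice (0.066), and 6 positive and 0 negative in the interaction (0.22). Of all genes, 2.74% and 2.24% were higher and lower between days in R26WT mice. In R26TIR1(F74G) mice 4.55% and 6.06% were, and in the interaction 4.3% and 5.6% were positive and negative. Over all genes the medians were -0.0037 on day 7 and 8.5e-05 on day 3. The summed start-site accessibility of heat shock genes was lowest in R26TIR1(F74G) replicate 3 of day 3 (447 CPM) and R26WT replicate 3 of day 7 (468 CPM). These were also lowest for Fosl2. It ranged from 547 to 685 CPM in the other 12. Its part in the values of the 9 genes was not tested.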

How the data were processed

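ATAC-seq libraries of 14 mice were grouped by the genotype and day in their labels. The authors deposited raw read counts per window, which per the labels were made with Bowtie2, MACS2 and featureCounts on mm10. Window starts may be counted from 0 or from 1, and coordinates are printed as deposited. Windows were assigned to the nearest 5′ end of a protein-coding RefSeq gene record (GRCm38.p6) within 100 kb. The member genes, the lists and the tests were chosen with earlier results of these data known.

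Windows whose counts averaged 10 or more over the compared libraries were tested with edgeR 4.0.16 (quasi-likelihood test, TMM, Benjamini-Hochberg adjustment over all windows) in R 4.3.3, and counts summed per gene in the same way over all genes. The scripts were tested on simulated data with known changes. The windows named were, for each gene, the start-site window, the most accessible one and the most accessible one more than 2 kb away, and for each comparison, since none passed, the 2 with the smallest p in each direction. DESeq2 1.42.0, other scalings, filters, covariates and samples, and other distances and start sites were tried as alternatives. Permutation tests used scipy 1.17.1 with 100000 permutations, and figures matplotlib 3.10.9. Libraries held 5653289 to 20184487 counts, so weak windows carry more error than strong ones.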

Additional observations from a re-analysis of the deposited data

Results flagged for a closer look

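Within groups of 4 mice, a single library stood apart from the other 3 at 2 start-site windows. At Fosl2, R26TIR1(F74G) replicate 3 on day 3 had 3.50 CPM, where the other 3 had 5.75 to 5.90 CPM. At Egr1, R26WT replicate 4 on day 3 had 61.7 CPM, where the other 3 had 47.6 to 49.1 CPM. In both cases the gap to the nearest library, divided by the range of the group, was above the 95% critical value of Dixon's test, which chance exceeds in about 1 of 20 groups. The start-site and summed windows of the 9 genes gave 36 such groups of 4 mice, all of day 3, and groups of 3 mice were not tested. These libraries had the lowest (42.4%) and the highest (46.6%) share of counts near start sites of all 14, and the part of that share in the 2 values was not tested.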

How the results depend on the processing

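No window or summed gene of the 9 passed in the 6 comparisons under the alternatives run, with 2 exceptions. DESeq2 called 1 window over both days, upstream of Egr1, and leaving out one replicate at a time gave 0 to 1 called windows between days in R26TIR1(F74G) mice, the 1 being at Fosl2 without replicate 2 of day 3. Over the whole series the first of these fits called 155 windows and the second 364. With the replicate number as a block, 0 windows and 0 summed genes were called in each comparison. Same-numbered mice did not deviate together (correlations -0.079 to 0.065, highest for the own number in 1 of 7), so the numbers were not taken as pairs.

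The windows with the smallest p in a comparison kept their direction in the alternatives run, which their choice by p makes likely, and the other named windows outside the start sites were not refitted. Fold changes near 0 changed sign. Without the libraries of lowest depth, start-site windows gave -0.070 for Egr1 on day 7, -0.019 for Jun on day 3 and -0.00046 for Jun over both days, and summed windows gave -0.011 for Fos, 0.028 for Fosl2 and 0.030 for Egr3 on day 7. With a term for the prefix of the mouse name, the start-site window of Egr2 gave 0.053 and summed Fosl2 0.038 on day 7. Loess offsets gave 0.029 for the Junb start-site window over both days, and total counts -0.0048 for summed Fos on day 7. Windows within 10 kb gave 0.038 for Fosl2, 0.010 for Egr2 and 0.059 for Egr3 on day 7, 0.022 for Fos on day 3 and 0.019 for Egr3 over both days, and windows without overlaps 0.015 for Egr2 on day 7. The cause was not tested.

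Leaving out one replicate at a time, start-site windows ranged on day 7 from -0.070 to 0.13 for Egr1 and -0.15 to 0.054 for Egr2. On day 3 they ranged from -0.10 to 0.12 for Fosb, -0.048 to 0.076 for Jun and -0.025 to 0.12 for Egr2. Over both days they ranged from -0.15 to 0.0081 for Fos, -0.14 to 0.023 for Fosl2, -0.090 to 0.032 for Junb and -0.039 to 0.050 for Egr2. Summed windows ranged on day 7 from -0.046 to 0.063 for Fos, -0.070 to 0.038 for Fosl2, -0.050 to 0.021 for Egr2 and -0.072 to 0.030 for Egr3, and on day 3 from -0.13 to 0.021 for Fos and -0.13 to 0.014 for Junb.

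The 2 alternatives without the libraries of lowest depth and with all RefSeq start sites were chosen after seeing the data. Groups held 3 or 4 mice, and p-values were adjusted over all windows or genes, so a printed interval off 0 was not enough to pass. The window upstream of Fosl2 on day 3, at -0.46 (95% interval -0.75 to -0.16), had an adjusted p of 0.495 in edgeR. Changes of this size can thus go uncalled, and the smallest change that would pass was not tested.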
